A study of Mus musculus with 6 samples.

Results

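Vitamin A reaches its active form, retinoic acid, through a short series of enzymes and carriers, and 7 genes of that series were followed here in fasted and refed mouse liver: Cyp26a1, Cyp26b1, Dhrs3, Lrat, Rbp4, Aldh1a1 and Aldh1a7. They were found by gene symbol in the annotated array table, where each had a single transcript cluster (the set of array probes that stands for 1 gene). All 7 were measured, among 21531 genes tested. The genes were picked with their differences between the conditions already known, so their own values are given as a description, without a test.

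Total RNA came from liver of wild-type mice aged 12 to 14 weeks that were either fasted or refed, and no other allele or agent is named for either group. There were 3 arrays per condition, and each array held a pool of RNA from 3 different mice, so that 9 mice stood behind each condition. A pool hides the variation among its mice, and the SD given below is that between pools (n = 3). How long the animals were fasted and refed is not given in the sources used here. Values are log2 signals, differences are fasted minus refed on that log2 scale, and the bracketing values given with a difference are its 95% interval from the limma fit.

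In the liver, dietary retinol is taken up by hepatocytes and stored as retinyl esters, mostly in stellate cells. LRAT forms these esters, and RBP4, made by hepatocytes, carries retinol out into the plasma. Retinol dehydrogenases oxidize retinol to retinal, and DHRS3 reduces retinal back to retinol. Aldehyde dehydrogenases of the ALDH1A family oxidize retinal to retinoic acid, and the CYP26 enzymes hydroxylate retinoic acid, which clears it. Retinoic acid binds RAR and RXR receptor pairs on direct repeats of a core hexamer, often spaced by 5 bases (DR5), and Cyp26a1 is a textbook target of these receptors.

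The start of Cyp26a1 is shown because it held such a repeat, and that of Cyp26b1, its closest relative here, because it did not. Both are RefSeq windows of 300 bases on GRCm38.p6, from 250 bases before the start to 50 after it, read 5′ to 3′ on the gene's strand, with the DR5 in capitals. The Cyp26a1 window lies at chr19:37697558-37697857 (+ strand) and the Cyp26b1 window at chr6:84593761-84594060 (− strand).
Cyp26a1: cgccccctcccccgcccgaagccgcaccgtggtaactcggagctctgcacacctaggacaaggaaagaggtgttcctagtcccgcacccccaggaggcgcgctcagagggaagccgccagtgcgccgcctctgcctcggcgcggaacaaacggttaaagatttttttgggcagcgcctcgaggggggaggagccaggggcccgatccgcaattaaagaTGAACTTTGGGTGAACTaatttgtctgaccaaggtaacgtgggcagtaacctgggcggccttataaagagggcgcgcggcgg
Cyp26b1: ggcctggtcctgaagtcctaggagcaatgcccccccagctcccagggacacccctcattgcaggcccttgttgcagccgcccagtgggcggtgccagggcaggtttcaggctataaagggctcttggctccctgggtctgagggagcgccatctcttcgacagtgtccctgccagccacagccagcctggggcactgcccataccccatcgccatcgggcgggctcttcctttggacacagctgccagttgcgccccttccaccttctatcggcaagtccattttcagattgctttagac

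The search took 4 hexamers on both strands, AGGTCA, which is the usual form, then AGTTCA, which is that of Cyp26a1, and likewise GGGTCA together with the form GGTTCA, with 5 bases between 2 hexamers that point the same way. The Cyp26a1 repeat, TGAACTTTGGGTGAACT as read above, lay on the opposite strand, where it reads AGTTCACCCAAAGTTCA, with the same hexamer on each side of the spacer CCCAA. It spanned chr19:37697776-37697792, from 32 to 16 bases before the start. Of 32851 windows of this length, 32 (0.097%) held a DR5, belonging to 31 of 27025 genes. All 7 genes matched a RefSeq entry, with 11 windows in all, and no window of the other 6 held a DR5. No window of the 7 held the same hexamers spaced by 1 or 2 bases, which 0.222% and 0.268% of all windows did. Because AGTTCA was taken into the search as the form of Cyp26a1, the repeat of that gene was bound to be found. Its rarity and its absence from the other 6 genes are therefore given as a description only. A match of letters is a description of the window, and no binding was measured.

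Cyp26a1, the main retinoic acid hydroxylase of the liver, was lower in fasted liver by 3.08-fold. Its log2 signals were 6.86, 6.65 and 6.53 on fasted arrays 1 to 3 and 8.39, 7.98 and 8.54 on refed arrays 1 to 3. Every fasted array lay below every refed array, with 1.12 between the highest fasted and the lowest refed value. The means were 6.68 ± 0.16 in fasted and 8.30 ± 0.29 in refed liver, a difference of -1.62 (-1.93 to -1.31). This was the 13th largest decrease among the genes tested. On 2 of the 3 fasted arrays the Cyp26a1 signal was below the median of all transcript clusters on that array, whereas it was above it on every refed array. Leaving out any single array left the difference between -1.79 and -1.51. Its 28 probes cover chromosome 19 from 37772344 to 37776026 (+ strand), in the coordinates of the array annotation, whose entries name the build NCBIM37.

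**Figure D1:**
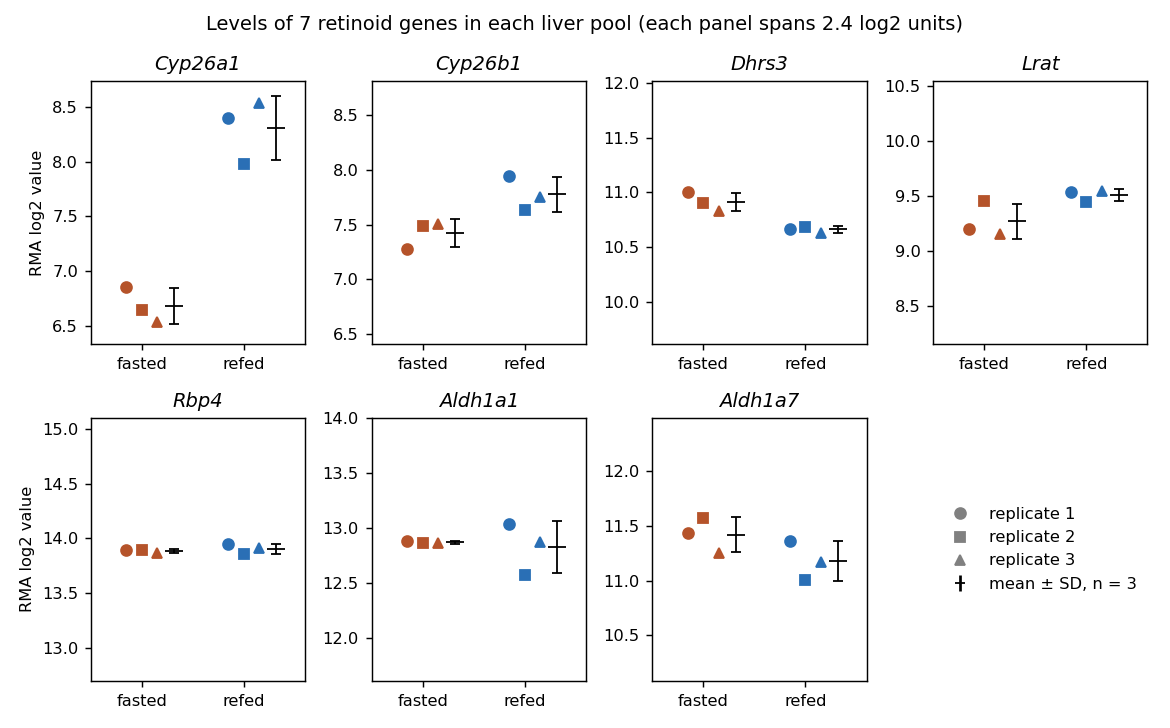
Log2 signal of the 7 genes on each array, fasted (3 arrays) and refed (3 arrays), with the mean and SD of each group. Cyp26a1 shows the widest distance between the groups, 6.68 against 8.30, and the groups of Rbp4, Lrat, Aldh1a1 and Aldh1a7 overlap.

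Cyp26b1, the second retinoic acid hydroxylase and better known from tissues outside the liver, was also lower on all fasted arrays, by a smaller step. It read 7.28, 7.48 and 7.51 in the fasted pools and 7.94, 7.63 and 7.75 in the refed pools. The groups did not overlap, but only 0.13 lay between the highest fasted and the lowest refed value. The difference was -0.35 (-0.59 to -0.12), from 7.42 ± 0.13 in fasted to 7.77 ± 0.16 in refed liver. Its transcript cluster lies on chromosome 6, from 84521926 to 84543902 (− strand), away from Cyp26a1.

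Cyp26c1, the remaining enzyme of the family, lies 4.4 kb from Cyp26a1 on chromosome 19 and was among the genes tested outside the 7. Its means were 6.65 ± 0.18 in fasted and 6.63 ± 0.08 in refed liver, a difference of 0.019 (-0.21 to 0.25). The signal was below the array median on 2 fasted and 3 refed arrays. Exoc6, a subunit of the exocyst complex 14.6 kb from Cyp26a1, differed by 0.14 (-0.06 to 0.34), and Myof, a membrane repair protein of the ferlin family 197.7 kb away, by -0.07 (-0.29 to 0.14). None of these 3 genes, which are all that were tested within 200 kb of Cyp26a1, passed an adjusted p of 0.05. Around the other 6 genes, none of the genes tested within the same distance passed it either, and the difference farthest from 0 among them was -0.29, for Plrg1, a splicing factor near Lrat.

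Dhrs3, which returns retinal to retinol, ran the other way and was higher in fasted liver. Its signals were 11.00, 10.91 and 10.83 in the fasted pools and 10.67, 10.69 and 10.63 in the refed pools. All fasted arrays lay above all refed arrays, by at least 0.14. The difference was 0.25 (0.062 to 0.44), between means of 10.91 ± 0.08 and 10.66 ± 0.03. The gene lies on chromosome 4, from 144482730 to 144518112 (+ strand).

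Lrat, the esterifying enzyme of the stellate cell stores, was 0.24 lower on average in fasted liver (-0.46 to -0.021), but its groups met. The fasted pools read 9.20, 9.45 and 9.15 and the refed pools 9.54, 9.44 and 9.55, so that fasted array 2 was slightly above refed array 2. The means were 9.27 ± 0.16 and 9.51 ± 0.06. Signals of other stellate cell genes are given beside Lrat as a description. In whole liver, fewer cells of a type and less RNA per cell cannot be told apart, and the part of either was not tested. None of 17 measured stellate cell markers passed the test, their median difference was 0.05, and their mean signal was 8.24 to 8.28 on fasted and 8.20 to 8.26 on refed arrays. The Lrat transcript cluster spans 82696504 to 82707896 on chromosome 3 (− strand).

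Rbp4, the plasma carrier of retinol, was at nearly the same signal on all 6 arrays. It read 13.89, 13.90 and 13.87 in fasted and 13.95, 13.85 and 13.91 in refed liver, and the ranges overlapped. The difference was -0.019 (-0.20 to 0.16). The gene lies at 38191119 to 38199738 on chromosome 19 (− strand).

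Aldh1a1 and Aldh1a7 are neighbouring paralogs, 49.5 kb apart on chromosome 19. Aldh1a1 makes retinoic acid from retinal, whereas the part of Aldh1a7 in retinoic acid synthesis is less clear. The last 150 bases of their RefSeq promoter windows are shown because they are nearly the same, at 142 of 150 bases (94.67%) without gaps, and the 8 bases that differ are in capitals. The Aldh1a1 stretch is chr19:20601868-20602017 (+ strand) and the Aldh1a7 stretch chr19:20727507-20727656 (− strand), both on GRCm38.p6.
Aldh1a1: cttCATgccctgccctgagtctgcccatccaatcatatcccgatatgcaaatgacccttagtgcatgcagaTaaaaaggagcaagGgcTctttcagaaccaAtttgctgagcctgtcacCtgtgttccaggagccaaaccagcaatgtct
Aldh1a7: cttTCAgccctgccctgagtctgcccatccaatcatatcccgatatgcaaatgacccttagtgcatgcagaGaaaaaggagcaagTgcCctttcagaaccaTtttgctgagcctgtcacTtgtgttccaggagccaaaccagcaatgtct

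Both stretches held 1 hexamer at the same place, tgaccc as read, 49 to 44 bases before the start, and at least 1 hexamer was present in 43.706% of all windows. Aldh1a1 read 12.88, 12.86 and 12.86 in the fasted pools and 13.04, 12.57 and 12.87 in the refed pools. The fasted arrays were close together and lay inside the refed range, which refed array 2 held at its low end. The difference was 0.040 (-0.22 to 0.29), and it was -0.090 without refed array 2.

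Aldh1a7 read 11.43, 11.57 and 11.26 in fasted and 11.37, 11.00 and 11.17 in refed liver. The fasted pools were higher on average, but fasted array 3 lay below refed array 1. The difference was 0.24 (-0.016 to 0.49), from 11.42 ± 0.16 to 11.18 ± 0.18. The array annotation puts both genes, like the other 5, in its class of transcript clusters whose probes are unique to their target. Whether the transcripts of this pair of paralogs share signal was not tested. Their transcript clusters span 20676458 to 20717952 (+ strand) for Aldh1a1 and 20767443 to 20802046 (− strand) for Aldh1a7.

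Of the 7 genes, 1 (Cyp26a1) had an adjusted p under 0.05, beside 3.02% of all genes tested (1.40% higher and 1.62% lower in fasted liver, 302 and 349 genes). The groups did not overlap for 3 of the 7, Cyp26a1 and Cyp26b1 with fasted lower and Dhrs3 with fasted higher. Over all genes the groups did not overlap for 18.8%, with fasted lower for 10.7% and higher for 8.16%. Nothing is read from these counts, because the genes were chosen on the same contrast. Within the refed group, array 2 gave the lowest value for 6 of the 7 genes, all but Dhrs3, where 33.25% of all genes had their lowest refed value on that array. Within the fasted group, array 3 gave the lowest value for 5 of the 7, beside 32.67% of all genes.

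**Figure D2:**
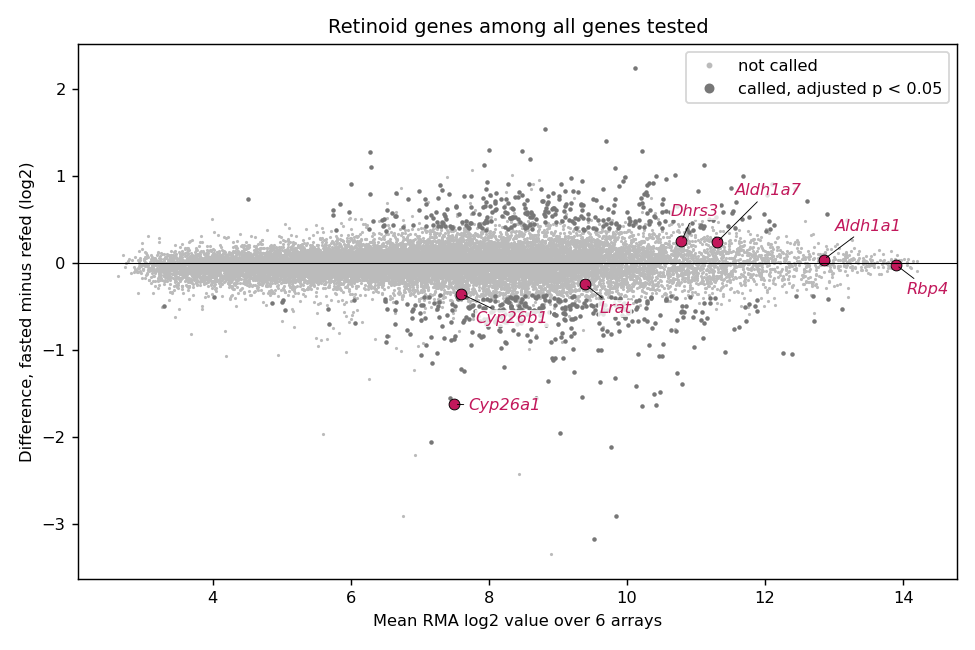
Difference, fasted minus refed (log2), against the mean log2 signal over the 6 arrays for all 21531 genes tested, with the 7 genes named. Cyp26a1 (-1.62) lies at the lower edge and the other 6 lie between -0.35 and 0.25, within the mass of genes.

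The genes whose values ran most like Cyp26a1 across the 6 arrays were sought among the 880 genes with an SD over arrays of at least 0.3. The arrays fall into the 2 conditions, so a high Pearson r here mainly follows the difference between them, and it is given as a description. Highest were Alg12 (r = 0.9952), a mannosyltransferase of N-glycan assembly, and Hyou1 (0.9937), a chaperone of the endoplasmic reticulum. Next came Ppp1r3b (0.9937), a subunit that brings protein phosphatase to glycogen, Sec23b (0.993), a coat protein of vesicles leaving the endoplasmic reticulum, and Creld2 (0.9929), a secreted protein of the endoplasmic reticulum. All 5 were lower in fasted liver. Their differences were -1.25 for Alg12, -1.06 for Hyou1, -0.63 for Ppp1r3b, -0.93 for Sec23b and -2.12 for Creld2, and every fasted array lay below every refed array for each of them.

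Beyond the 7 genes, 77 other genes of retinoid biology were listed by role, and all 77 were measured. Only 2 passed the limma test across all genes, Rdh11 and Ces1e, both higher in fasted liver, a share of 2.6% beside 3.02% of all genes. The median difference was 0.05, beside -0.01 over all genes. For 17 of the 77, the mean signal over the 6 arrays was below the average array median. Of the 77, 50 had a positive and 27 a negative difference (64.94% positive, beside 47.03% of all genes). An unadjusted p under 0.05 was found for 17 of the 77, beside 14.1% of all genes. The groups did not overlap for 19 of the 77 (24.68%, beside 18.8% of all genes). The 77 genes were listed with earlier results of these data known. Nothing is therefore read from these shares, or from those of the role groups below. The count of calls rested on single arrays. None passed without fasted array 1, and 6 passed without refed array 1.

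**Figure D3:**
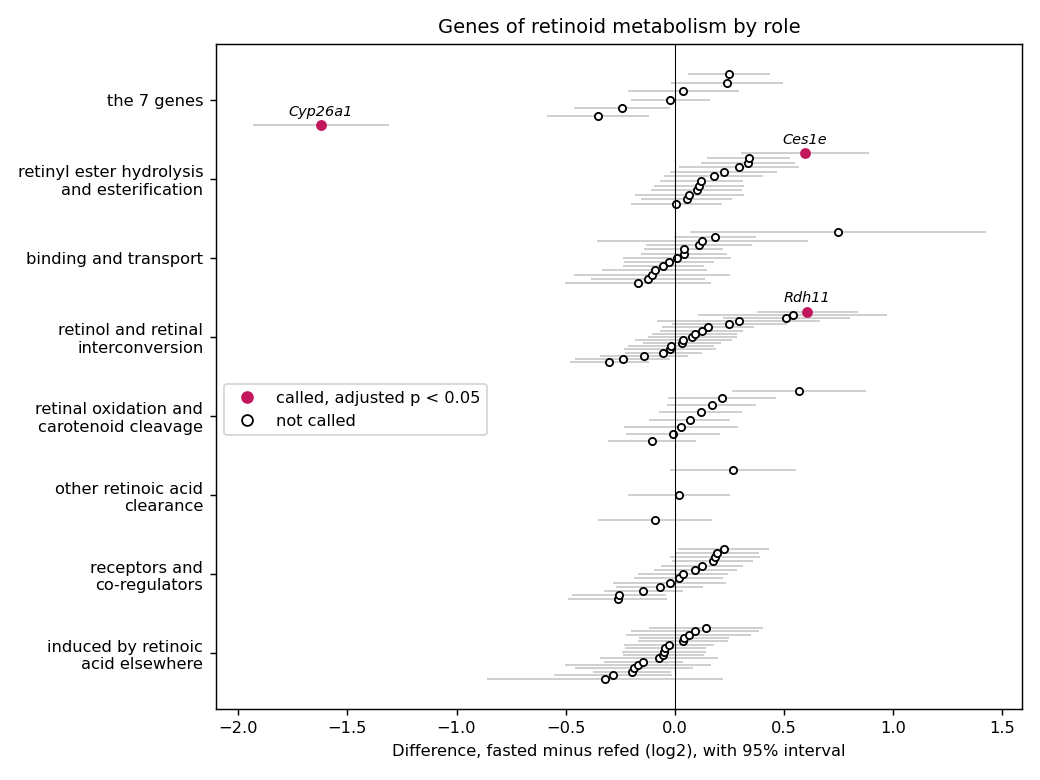
Difference, fasted minus refed (log2), with its 95% interval, for the 7 genes and the 77 other genes of retinoid biology by role, where 5 genes stand in 2 role groups. Filled points had an adjusted p under 0.05 (limma, all genes), which among the 77 holds for Rdh11 (0.61) and Ces1e (0.60). All 12 genes of ester hydrolysis and esterification lie above 0, but Lrat, shown among the 7, lies below it.

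Genes of retinyl ester hydrolysis and esterification, which release or store retinol, had a positive difference for all 12 measured members, from 0.0073 for Dgat1 to 0.60 for Ces1e, with a median of 0.15, where 47.03% of all genes had a positive difference. Only Ces1e, a carboxylesterase, passed the test. It read 10.98, 10.82 and 10.78 in the fasted pools and 10.57, 10.22 and 9.998 in the refed pools, with no overlap. It rose in fasted liver by 0.60 (0.30 to 0.89, limma adjusted p = 0.0375). The call was lost in 5 of 6 fits that left out 1 array, all but the one without refed array 1, with adjusted p up to 0.175. Pnpla2, the adipose triglyceride lipase, read 10.68, 10.58 and 10.65 in fasted and 10.21, 10.34 and 10.33 in refed liver, a difference of 0.34 (limma adjusted p = 0.0639). Lipe, hormone-sensitive lipase, differed by 0.34 (0.106) and Ces1g, another carboxylesterase, by 0.30 (0.306). The array annotation puts Ces1e and Ces1g in its class of transcript clusters whose probes are unique to their target. They are close paralogs, however, and whether their transcripts share signal was not tested.

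The enzymes that interconvert retinol and retinal numbered 17, of which 11 had a positive difference, with a median of 0.08. Rdh11, which acts on retinol and retinal in the endoplasmic reticulum, was the only one to pass. It read 9.77, 9.68 and 9.51 in the fasted pools and 8.90, 9.05 and 9.19 in the refed pools. All fasted values were above all refed values, and it rose by 0.61 (0.38 to 0.84, limma adjusted p = 0.0108). Leaving out fasted array 1 raised the adjusted p to 0.0685, and the call held without any other single array. Rdh16, a retinol dehydrogenase abundant in liver, was higher on every fasted array, with a difference of 0.51 (limma adjusted p = 0.0692). Rdh14 differed by 0.54 (0.214) with overlapping groups. Dhrs9 was lower on every fasted array, with a difference of -0.30 (0.0866). Rdh10, the dehydrogenase that works with Dhrs3 in one complex, read 9.56 ± 0.11 in fasted and 9.69 ± 0.07 in refed liver, a difference of -0.14 (-0.34 to 0.06). It was singled out after its values were seen, for its link to Dhrs3.

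Among 8 genes of retinal oxidation and carotenoid cleavage none passed. Bco2, which cleaves carotenoids off-centre, came closest and was higher on every fasted array, at 7.97, 7.81 and 7.65 against 7.54, 6.97 and 7.23. The difference was 0.57 (0.26 to 0.88, limma adjusted p = 0.0559). The aldehyde oxidases Aox3 and Aox1 differed by 0.22 (0.442) and 0.17 (0.483). Of the 3 other genes of retinoic acid clearance none passed either, with Cyp2c39 at 0.27 (0.411), Cyp2s1 at -0.09 (0.859) and Cyp26c1 at 0.019 (0.978).

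The 13 carriers and transporters of retinoids included no gene that passed. Cd36, a fatty acid and carotenoid receptor, had the difference farthest from 0, 0.75 (0.069 to 1.43, limma adjusted p = 0.287). It read 9.85, 9.40 and 9.59 in the fasted pools and 9.80, 8.51 and 8.28 in the refed pools. Refed array 1 thus lay among the fasted arrays, and without it the difference was 1.22, with an adjusted p of 0.00246. Lrp1, a receptor for lipoprotein remnants, differed by 0.18 (0.369).

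Of 13 retinoid receptors and co-regulators none passed. The co-activator Ncoa3 differed by -0.25 (limma adjusted p = 0.25) and the receptor Rxrg by 0.22 (0.304), both with groups that did not overlap. That was the case for 7 of the 13 (53.85%, beside 18.8% of all genes), 4 with fasted higher and 3 with fasted lower. Of the 16 genes known to be induced by retinoic acid in various other cells, 11 had a negative and 5 a positive difference, with a median of -0.05, and none passed. For 6 of the 16, Hoxb4 among them, the mean signal over the 6 arrays was below the average array median. The homeobox gene Hoxb4 differed by -0.19 (0.298), the transglutaminase Tgm2 by -0.28 (0.321) and Rarb, a receptor gene induced by its own ligand, by -0.14 (0.509). Rarres1 differed by -0.32 (0.687) with all arrays, and without refed array 2 by -0.67 (0.0252). It was singled out after its values were seen. Refed array 2 held its lowest value, 8.87, against 9.67 and 10.16 on the other refed arrays, and Rarres1 passed in no other alternative.

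The genes that share a DR5 with Cyp26a1 in their promoter windows were also compared. Of the 31 such genes, 9 were found by symbol among the genes tested, and the others were not sought by accession. None of the 8 besides Cyp26a1 passed, nor did any have an unadjusted p under 0.05. Their differences ranged from -0.21 to 0.10, with a median of -0.07, and 5 were negative. Rarb read 7.62, 7.65 and 7.54 in fasted and 7.73, 7.77 and 7.74 in refed liver, so that its groups did not overlap. That was the case for 2 of the 8, beside 18.8% of all genes.

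**Figure D4:**
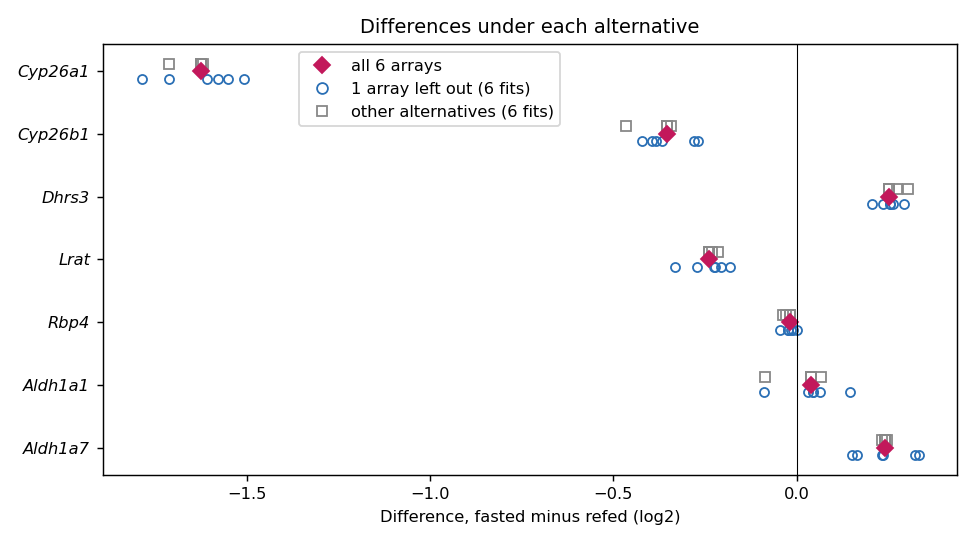
Difference, fasted minus refed (log2), of the 7 genes in the main fit and under the 12 other ways of processing. Cyp26a1 stays between -1.79 and -1.51, whereas Rbp4 and Aldh1a1 lie on both sides of 0.

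Array signals across all genes had medians of 6.73 to 6.81. The 12 hepatocyte markers, albumin among them, averaged far above these medians, at 13.52 to 13.58 on fasted and 13.51 to 13.55 on refed arrays, and none passed the test. None of 12 pericentral markers passed either, in the zone where Cyp26a1 is known to be expressed, and their mean was 11.23 to 11.25 on fasted and 11.11 to 11.29 on refed arrays. Of 12 periportal markers 3 passed (25.0%, beside 3.02% of all genes), Pck1 (0.56) and Arg1 (0.37) as higher and Cdh1 (-0.59) as lower in fasted liver. Of 12 sinusoidal endothelial markers and 9 blood cell markers none passed, and refed array 2 had the highest blood cell mean, 9.33 against 8.68 to 8.90 on the other 5 arrays. Of 10 Kupffer cell markers 2 passed, Vsig4 (-0.71) and C1qb (-0.56), both as lower, beside 3.02% of all genes. All 10 had a negative difference, with a median of -0.22, where 47.03% of all genes had a positive difference. The groups did not overlap for 4 of the 10, all with fasted lower, beside 18.8% of all genes in either direction. The mean of the list was 8.45 to 8.46 on fasted and 8.61 to 8.91 on refed arrays. Of 18 acute phase genes 4 passed as lower in fasted liver (22.22%, beside the same 3.02%), Orm3 (-1.06), Steap4 (-0.78), Orm2 (-2.90) and Lcn2 (-3.17). Their list mean was 9.81 to 9.93 on fasted arrays and 10.06, 11.22 and 11.37 on refed arrays 1 to 3. The part of these other cells and of the acute phase genes in the results for retinoid genes was not tested.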

How the data were processed

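Liver RNA of 3 fasted and 3 refed pools was hybridized to Affymetrix mouse gene 1.0 ST arrays. The deposited values are log2 signals, which the authors background-corrected, normalized and summarised with RMA in Affymetrix Expression Console 1.3.1.187. Of 34760 transcript clusters, 27619 were also in the deposited annotated table, which gave symbols, positions and, as another deposited measurement, the number of probes of each cluster (no unit). In both tables, 24446 clusters had 1 symbol, 2 had several and 3171 had none. As an identity check, 558 clusters were left out because the refed mean and the authors' own log2 mean of arrays named as refed wild type differed by more than 1. This limit was taken from an earlier analysis that had seen the files. For each symbol the cluster with the highest mean was kept, which left 21531 genes. In the annotated table, 12 columns of array values that match no labelled sample and the authors' own comparison (log2 fold change, t, p and adjusted p) were not used.

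The 2 conditions were set against each other in limma 3.58.1 (lmFit and eBayes, R 4.3.3) on group alone, two-sided, with Benjamini-Hochberg adjustment over all genes and a call at an adjusted p under 0.05. The number of arrays limits the precision, and an exact permutation test of 3 against 3 cannot go below p = 0.1. The 7 genes and all lists were chosen with earlier results of these data known. Of the 77 other retinoid genes, 75 were matched by symbol and 2 by accession. Named were the 7 genes, every other retinoid gene called, up to 3 uncalled genes per role with the smallest p, the 5 genes most correlated with Cyp26a1, and called markers, up to 4 per list. Some genes that this rule takes are not reported here. Promoter windows are from RefSeq (GRCm38.p6). Alternatives were leaving out arrays, the replicate number as a block, no identity check, genes above the median level only, quantile normalization and a mean-dependent robust variance prior.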

Additional observations from a re-analysis of the deposited data

How the results depend on the processing

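Over the 12 alternatives the difference of Cyp26a1 was -1.79 to -1.51, given as a description like those of the other 6 genes. Cyp26b1 (-0.47 to -0.27), Lrat (-0.33 to -0.18), Dhrs3 (0.21 to 0.30) and Aldh1a7 (0.15 to 0.33) kept their direction. Rbp4 turned to 0.0018 without refed array 1, and Aldh1a1 to -0.090 without refed array 2 and to -0.086 without fasted array 3 and refed array 2. The number of all genes called, 651, was 266 to 616 when 1 array was left out, lowest without fasted array 1. It was 413 without fasted array 3 and refed array 2, and why these counts differ was not tested. The number of other retinoid genes called, 2, was 0 to 6 when 1 array was left out. It was 1 without fasted array 3 and refed array 2, 5 among genes above the median level only and 5 with the mean-dependent robust variance prior. The added genes in both of the latter were Pnpla2, Rdh16 and Bco2, and the cause was not tested. The split of calls, 302 higher and 349 lower, became 385 and 400 with quantile normalization and turned to 329 and 226 without fasted array 3.

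The replicate numbers did not pair the arrays. Deviations of same-numbered arrays from their group means correlated at 0.0691, -0.2289 and -0.3347, and no array correlated best with its own number. The highest correlation was 0.447, between fasted array 3 and refed array 2. With the replicate number as a block, 457 genes were called, among them 3 other retinoid genes (Rdh11, Ces1e and Bco2). A comparison over several transcript clusters per gene could not be run for the 7 genes, which have 1 each. How far signals below the array median, such as those of Cyp26a1 on 2 fasted arrays, lay above background is not known from these values.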
